A study of Arabidopsis thaliana with 12 samples.

Results

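FLC, FLM, MAF2, MAF3, MAF4, MAF5, SVP, SOC1, FT and TSF are 10 Arabidopsis thaliana genes that set when a plant flowers and that are known to respond to growth temperature. They were taken by their locus identifiers (AT5G10140, AT1G77080, AT5G65050, AT5G65060, AT5G65070, AT5G65080, AT2G22540, AT2G45660, AT1G65480 and AT4G20370, in the same order) from a table of 27655 genes and followed in 12 RNA libraries, 3 in each of 4 groups. All seedlings were of wild type Columbia, an accession that carries a non-functional allele of FRIGIDA, the main activator of FLC. All grew for 7 days at 21°C in short days of 8 h light and 16 h dark. From 1 h after lights on, seedlings were kept at 27°C with mannitol, at 27°C, at 21°C with mannitol or at 21°C, and whole seedlings were collected 12 h later, in the dark. Mannitol is a sugar alcohol used to draw water from tissue as a drought-like treatment, and the labels used here do not give the dose. The labels do not say whether the 3 libraries of a group came from separate cultures, so the p-values measure the spread between these samples, which may be technical.

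FLC and its close relatives FLM and MAF2 to MAF5 are MADS-domain transcription factors that hold flowering back. SVP is another MADS-domain repressor and binds DNA together with members of the FLC clade. These repressors act on FT and TSF, which encode small mobile proteins called florigens. Florigens are made in the phloem of leaves and move to the shoot apex, where they help to switch on SOC1, a MADS-domain activator of flowering that the repressors also target directly. Warm nights are known to speed flowering, and splice forms of FLM and MAF2 and the stability of SVP protein are known parts of that response. The set thus holds repressors, florigens and 1 activator, SOC1, which is neither a repressor nor a florigen.

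The deposited values are TPM, transcripts scaled to a sum of 1000000 per library, from which whole read numbers could be recovered. The libraries held 13478473 to 14573479 reads assigned to genes. Markers of green tissue, root, shoot meristem and phloem companion cells were all detected. The summed TPM of the 4 green-tissue markers differed between groups without overlap between the mannitol groups and their controls, at 32541 to 33869 in 27°C with mannitol, 52315 to 55325 in 27°C, 54284 to 55385 in 21°C with mannitol and 69333 to 71124 in 21°C. The 5 shoot meristem markers summed to 53.3 to 57.7 TPM in 27°C with mannitol, 36.9 to 43.9 TPM in 27°C, 23.0 to 25.5 TPM in 21°C with mannitol and 16.0 to 23.5 TPM in 21°C, most of it from KNAT1. The green-tissue markers did not all move alike. In 27°C against 21°C, RCA differed by 0.44, CAB3 by -1.38 and LHCB1.3 by -0.77 (log2, fitted as below), and RBCS1A was not called. In whole seedlings, fewer cells of a type and less RNA per cell cannot be told apart, and the part of these shifts in the results below was not tested.

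Differences are given as log2 differences of TPM + 1 with their standard error, from limma fitted to 20005 genes with at least 1 TPM in at least 3 libraries, and a gene was called at a Benjamini-Hochberg adjusted p under 0.05. This scale understates changes of genes near 1 TPM. FLC, FLM, MAF2 to MAF5, SVP and SOC1 passed the filter, and FT and TSF did not. In 27°C against 21°C, FLC, MAF2 and SVP were higher, FLM and SOC1 were lower, and MAF3, MAF4 and MAF5 were not called. That is 5 of 8, where 44.8% of all tested genes were called, 28.2% higher and 16.6% lower. With mannitol in both groups, FLC, MAF2 and SVP were called, 3 of 8 and all higher at 27°C, where 54.0% of all genes were called, 37.5% higher and 16.5% lower. TPM values of a library sum to a fixed total, so the scaling was varied. When the libraries were rescaled to a common median ratio instead of a common sum, the median difference of all genes was 0.0028 in place of 0.087 in 27°C against 21°C, -0.0032 in place of 0.16 in 27°C with mannitol against 21°C with mannitol, -0.013 in place of 0.17 in 27°C with mannitol against 27°C, -0.018 in place of 0.078 in 21°C with mannitol against 21°C and 0.012 in place of 0.27 in 27°C with mannitol against 21°C. The share of called genes that were higher moved in the same order to 50.3% from 62.9%, to 47.6% from 69.4%, to 44.0% from 80.3%, to 52.0% from 77.0% and to 50.3% from 76.1%.

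**Figure D1:**
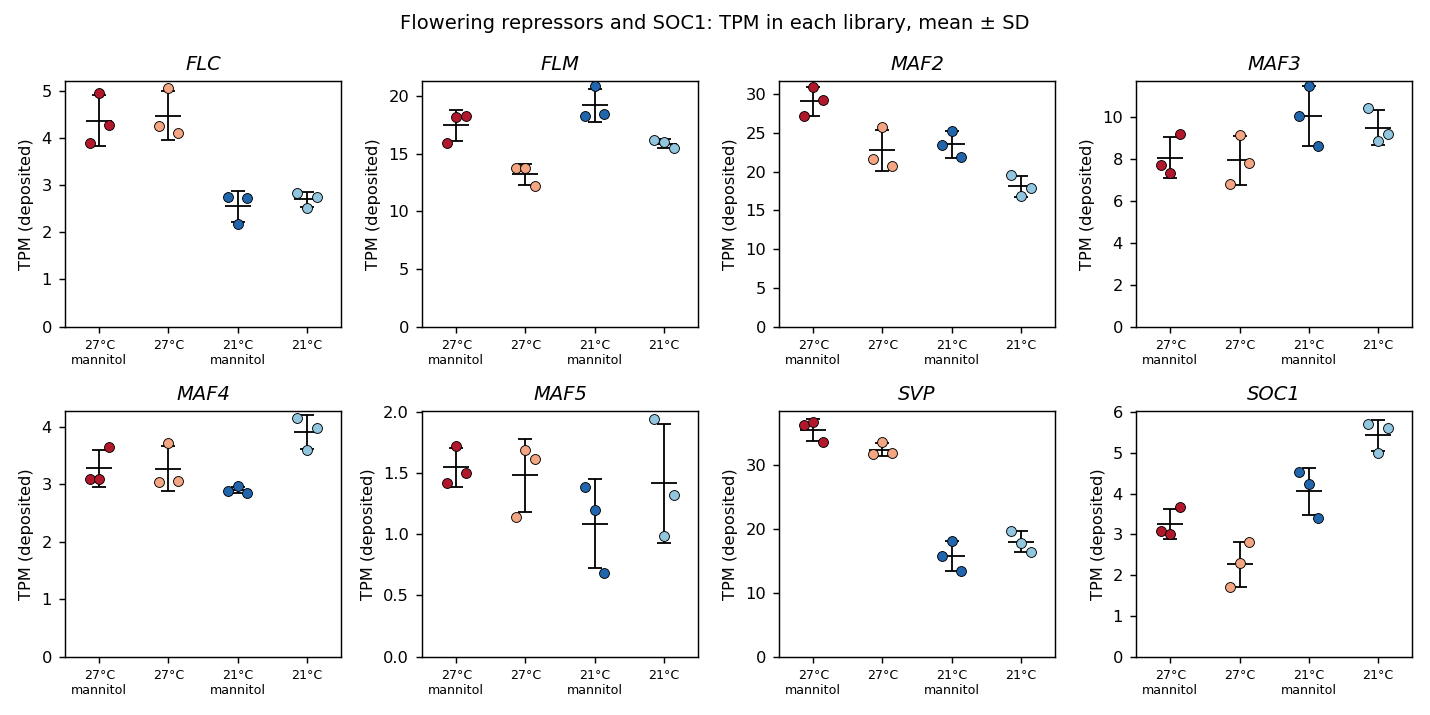
TPM (vertical axis, from 0) of the 8 genes that passed the filter, with 1 point per library, in 27°C with mannitol, 27°C, 21°C with mannitol and 21°C from left to right; the long bar is the mean of 3 libraries and the whiskers are the SD. SVP and FLC split by temperature, MAF2 is highest in 27°C with mannitol, at 27.2 to 31.0 TPM, and SOC1 is highest in 21°C, at 5.002 to 5.71 TPM.

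SVP was higher in warm seedlings with and without mannitol and had the widest range of group means of the set. Its level was 36.3, 36.7 and 33.6 TPM in 27°C with mannitol, and 31.7, 33.5 and 31.9 TPM in 27°C. It was 15.7, 18.1 and 13.5 TPM in 21°C with mannitol, and 19.7, 17.9 and 16.5 TPM in 21°C. Every warm library lay above every library at 21°C, by a wide margin. SVP rose by 0.81 ± 0.10 in 27°C against 21°C (adjusted p = 1.44e-05) and by 1.13 ± 0.10 in 27°C with mannitol against 21°C with mannitol (adjusted p = 5.66e-07). Mannitol left no called difference at either temperature, with 0.13 ± 0.10 at 27°C and -0.19 ± 0.10 at 21°C, and the sign at 27°C turned to -0.061 with rescaling. The warmth calls stood in all 21 alternative fits of each comparison. The gene lies on chromosome 2, at chr2:9579647-9583901 on the plus strand of TAIR10.1. The 250 bases before its annotated start, shown because SVP rose most with warmth, held none of the 3 motifs searched, which were the G-box CACGTG, the evening element AAAATATCT and the CArG box bound by MADS-domain proteins, each on both strands.

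SVP promoter, chr2:9579397-9579646, plus strand: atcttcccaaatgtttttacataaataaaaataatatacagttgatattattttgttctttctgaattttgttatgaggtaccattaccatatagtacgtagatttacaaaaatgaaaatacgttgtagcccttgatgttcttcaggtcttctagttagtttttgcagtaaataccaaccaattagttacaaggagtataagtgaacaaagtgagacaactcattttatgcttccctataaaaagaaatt

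FLC rose with warmth, and mannitol left no called difference. It stood at 3.89, 4.95 and 4.27 TPM in 27°C with mannitol, and at 4.25, 5.07 and 4.10 TPM in 27°C. In 21°C with mannitol it stood at 2.76, 2.18 and 2.72 TPM, and in 21°C at 2.83, 2.52 and 2.75 TPM. The warm libraries and the libraries at 21°C did not overlap. The difference was 0.56 ± 0.14 in 27°C against 21°C (adjusted p = 0.00463) and 0.60 ± 0.14 in 27°C with mannitol against 21°C with mannitol (adjusted p = 0.00261). The mannitol differences were -0.03 ± 0.14 at 27°C and -0.06 ± 0.14 at 21°C. These levels rest on 137 to 185 reads per library in the warm groups and 80 to 104 reads per library in the groups at 21°C. FLC runs from chr5:3173382-3179448 on the minus strand of TAIR10.1, and its whole span is covered on the other strand by the annotated long non-coding RNA AT5G01675, and antisense transcripts of FLC are known as COOLAIR. No strand is stated for the libraries, so reads of FLC and of its antisense transcripts cannot be told apart. The 250 bases before FLC held a G-box 146 bases and an evening element 59 bases before the annotated start, in capitals below. A G-box is a core site of PIF and other bHLH and bZIP factors, and the evening element is a site of clock factors. Of 27443 protein-coding gene promoters of the same length, 6.49% held a G-box, 2.36% an evening element and 2.52% a CArG box. Of the other members, MAF5 alone held any of these motifs, an evening element 168 bases before its start.

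FLC promoter, chr5:3179449-3179698, minus strand: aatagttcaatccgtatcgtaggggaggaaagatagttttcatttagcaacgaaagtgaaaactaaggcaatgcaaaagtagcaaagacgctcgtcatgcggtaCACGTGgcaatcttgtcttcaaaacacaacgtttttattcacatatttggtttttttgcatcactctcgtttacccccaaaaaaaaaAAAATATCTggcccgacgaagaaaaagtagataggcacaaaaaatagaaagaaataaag

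FLM, MAF2 and MAF3 share the longest identical exon stretches in the clade, of 44 to 61 bases, and their calls differed. MAF4 and MAF5 share a stretch nearly as long, of 43 bases. MAF2 to MAF5 stand in a row on chromosome 5 within 20366 bases of TAIR10.1, with 780 to 1301 bases between neighbours, while FLM stands on chromosome 1. The promoters of FLM, MAF2 and MAF3 share a stretch of 18 bases, in capitals below, that 3 of the 27443 promoters held, these 3 genes. FLM and MAF2 share the longer stretch of 35 bases around it. They are shown because the genes with this common stretch were not called alike.

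FLM promoter, chr1:28955233-28955482, plus strand: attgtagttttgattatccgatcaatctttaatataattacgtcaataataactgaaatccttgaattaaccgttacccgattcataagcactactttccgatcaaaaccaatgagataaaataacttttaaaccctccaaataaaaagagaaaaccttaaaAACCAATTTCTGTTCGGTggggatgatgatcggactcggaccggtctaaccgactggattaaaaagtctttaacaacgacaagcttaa
MAF2 promoter, chr5:25982004-25982253, plus strand: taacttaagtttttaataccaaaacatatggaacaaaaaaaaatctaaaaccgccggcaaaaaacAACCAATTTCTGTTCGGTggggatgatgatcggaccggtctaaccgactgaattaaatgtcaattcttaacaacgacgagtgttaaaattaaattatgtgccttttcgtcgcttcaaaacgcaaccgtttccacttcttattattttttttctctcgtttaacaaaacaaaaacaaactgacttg
MAF3 promoter, chr5:25987059-25987308, plus strand: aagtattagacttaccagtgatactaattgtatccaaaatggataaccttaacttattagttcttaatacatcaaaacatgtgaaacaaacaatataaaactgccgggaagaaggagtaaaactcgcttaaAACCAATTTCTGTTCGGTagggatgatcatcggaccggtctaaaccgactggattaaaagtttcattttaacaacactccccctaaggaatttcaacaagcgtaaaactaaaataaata

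MAF2 was higher with warmth and with mannitol, and highest with both. It had 27.2, 31.0 and 29.2 TPM in 27°C with mannitol, and 21.7, 25.8 and 20.8 TPM in 27°C. In 21°C with mannitol it had 23.5, 25.2 and 21.9 TPM, and in 21°C 19.5, 16.9 and 17.9 TPM. All libraries of both single treatments lay above all of 21°C. The difference from 21°C was 0.66 ± 0.10 with both treatments (adjusted p = 3.89e-05), 0.31 ± 0.10 with warmth (adjusted p = 0.0176) and 0.36 ± 0.10 with mannitol (adjusted p = 0.0169). MAF2 also rose by 0.30 ± 0.10 in 27°C with mannitol against 21°C with mannitol (adjusted p = 0.0189) and by 0.35 ± 0.10 in 27°C with mannitol against 27°C (adjusted p = 0.0137). With rescaling, the difference with both treatments was 0.38 and stayed called, while those for warmth (0.22, adjusted p = 0.0913), for mannitol (0.26, adjusted p = 0.0903), for warmth on mannitol (0.12, adjusted p = 0.347) and for mannitol at 27°C (0.16, adjusted p = 0.284) lost the call. The warmth call was also lost without replicate 2 of 27°C (0.22, adjusted p = 0.0621) or replicate 2 of 21°C (0.27, adjusted p = 0.0736), and with only the groups compared in the fit (adjusted p = 0.0603). The mannitol call at 21°C was lost without replicate 1 (0.36, adjusted p = 0.0517) or 2 (0.31, adjusted p = 0.0718) of 21°C with mannitol or replicate 2 of 21°C (0.32, adjusted p = 0.0728). The call for warmth on mannitol was lost without replicate 2 of 27°C with mannitol (0.25, adjusted p = 0.0783) or replicate 3 of 21°C with mannitol (0.25, adjusted p = 0.0818) and by limma-voom (0.22, adjusted p = 0.0669), and that for mannitol at 27°C without replicate 2 of 27°C with mannitol (0.30, adjusted p = 0.0633) or replicate 3 of 27°C (0.29, adjusted p = 0.0621).

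FLM, the regulator whose splice forms are known to shift with temperature, was higher with mannitol. It measured 15.9, 18.2 and 18.3 TPM in 27°C with mannitol, against 13.7, 13.7 and 12.2 TPM in 27°C. It measured 18.3, 20.9 and 18.4 TPM in 21°C with mannitol, against 16.1, 16.0 and 15.4 TPM in 21°C. Both mannitol groups lay above their controls with no overlap. The mannitol difference was 0.38 ± 0.09 at 27°C (adjusted p = 0.00651) and 0.26 ± 0.09 at 21°C, which missed the threshold (adjusted p = 0.0662) and passed it by limma-voom (adjusted p = 0.0420), with transcript lengths (adjusted p = 0.0328) and without replicate 2 of 27°C (adjusted p = 0.0491). The 21 alternative fits gave 0.16 to 0.29 at 21°C, with adjusted p up to 0.281, and 18 of them left it uncalled. With rescaling the value at 27°C was 0.19 (adjusted p = 0.153). FLM fell by 0.25 ± 0.09 in 27°C against 21°C (adjusted p = 0.0416), a call lost in 8 of the 12 fits that left out a library, all but those without replicate 1 of 27°C with mannitol, replicate 1 or 2 of 27°C, or replicate 2 of 21°C with mannitol, with values of -0.28 to -0.19 and adjusted p up to 0.152. It was also lost with only the groups compared in the fit (adjusted p = 0.0869). In 27°C with mannitol against 21°C with mannitol, FLM differed by -0.13 ± 0.09 (adjusted p = 0.252), by -0.30 with rescaling (adjusted p = 0.0149) and by -0.23 with limma-voom (adjusted p = 0.0342). The values pool all splice forms, so any shift between FLM-beta and FLM-delta is not visible in them.

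MAF3 gave no call in any comparison on the deposited scale, and passed the threshold in 3 comparisons under alternatives. It had 7.68, 7.32 and 9.18 TPM in 27°C with mannitol, and 6.80, 9.15 and 7.82 TPM in 27°C. In 21°C with mannitol it had 10.05, 11.5 and 8.60 TPM, and in 21°C 10.4, 8.83 and 9.20 TPM. Its differences were -0.24 ± 0.14 in 27°C against 21°C (adjusted p = 0.169) and -0.28 ± 0.14 in 27°C with mannitol against 21°C with mannitol (adjusted p = 0.0915). The second value was -0.44 with rescaling (adjusted p = 0.0161) and -0.40 with limma-voom on the recovered reads (adjusted p = 0.0213), and without replicate 3 of 21°C with mannitol it was -0.38 (adjusted p = 0.0475). In 27°C against 21°C with mannitol the difference was -0.31 ± 0.14 (adjusted p = 0.0747), and it passed the threshold without replicate 2 of 27°C (-0.40, adjusted p = 0.0276) or replicate 3 of 21°C with mannitol (-0.40, adjusted p = 0.0402), with limma-voom (-0.37, adjusted p = 0.0358) and with transcript lengths (-0.31, adjusted p = 0.0498). In 27°C with mannitol against 21°C it was -0.21 ± 0.14 (adjusted p = 0.182), with -0.47 by rescaling (adjusted p = 0.00970) and -0.34 by limma-voom (adjusted p = 0.0444).

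A ratio of 2 genes within a library does not depend on how libraries are scaled. Its size does depend on the gene lengths used in the TPM, as does a share of a sum, while the relative change of a ratio between groups does not. The ratio of MAF2 to MAF3 was 3.18 to 4.23 in 27°C with mannitol, 2.65 to 3.19 in 27°C, 2.20 to 2.54 in 21°C with mannitol and 1.87 to 1.94 in 21°C. Every treated library had a higher ratio than every library of 21°C. MAF2 made up 69.3% ± 2.4 of the summed TPM of MAF2 to MAF5 in 27°C with mannitol, 64.2% ± 2.0 in 27°C, 62.7% ± 1.4 in 21°C with mannitol and 55.0% ± 0.8 in 21°C (SD, n = 3 each). The ratio of SVP to FLM, whose proteins are known to act as a pair, was 1.84 to 2.28 in 27°C with mannitol and 2.31 to 2.62 in 27°C. It was 0.731 to 0.866 in 21°C with mannitol and 1.07 to 1.22 in 21°C. Both warm groups lay above both groups at 21°C, and each mannitol group lay below its control. Which of SVP and FLM is the higher at 21°C depends on the length used. With the median transcript length, SVP averaged 34.5 TPM and FLM 47.5 TPM in 21°C.

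**Figure D2:**
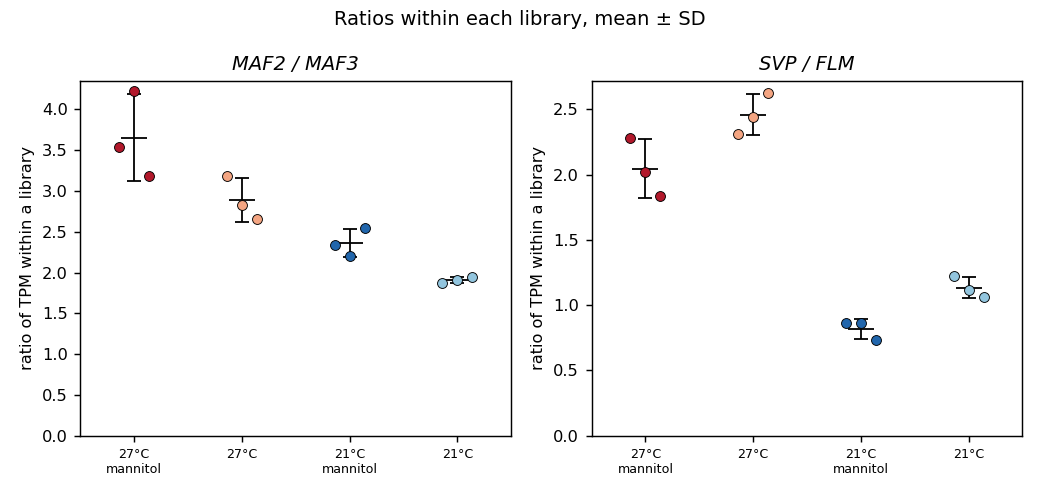
Ratio of deposited TPM within each library (vertical axis, from 0) of MAF2 to MAF3 on the left and SVP to FLM on the right, in 27°C with mannitol, 27°C, 21°C with mannitol and 21°C from left to right; points are libraries, bars are means and whiskers are the SD of 3. MAF2 over MAF3 is lowest in 21°C, at 1.87 to 1.94, and SVP over FLM is above 1.8 in each warm library and at most 1.22 in each library at 21°C.

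Reads of these relatives could be confused where their sequences match. The search covered exact matches of exon sequence only, so inexact matches and intron windows were not examined. Annotated exons take in 94.3% of the span of FLM. Exon windows of each gene were searched along the nuclear chromosomes on both strands, in exons or not. At a window of 50 bases, 12 of 4287 exon windows of FLM (0.280%) and 29 of 1177 of MAF3 (2.46%) were found elsewhere. Of the 29 of MAF3, 12 were shared with FLM, and the other members shared none. The other 8 members had no window found elsewhere, and at 100 bases none of the 10 had such a window. The longest exact match between members, 61 bases shared by exons of FLM at chr1:28955695-28955755 and MAF3 at chr5:25987543-25987603, encodes part of the MADS domain and is printed below. Identity over the whole genes was not computed.

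FLM and MAF3: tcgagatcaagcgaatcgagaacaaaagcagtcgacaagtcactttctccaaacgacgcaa

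MAF4 and MAF5 were low and gave no call on the deposited scale. MAF4 averaged 3.28 ± 0.32 TPM in 27°C with mannitol, 3.28 ± 0.39 TPM in 27°C, 2.90 ± 0.056 TPM in 21°C with mannitol and 3.92 ± 0.29 TPM in 21°C (SD, n = 3 each). All 3 libraries of 21°C with mannitol lay below all 3 of 21°C, with a difference of -0.33 ± 0.13 that missed the threshold (adjusted p = 0.101) and passed it with rescaling (-0.42, adjusted p = 0.0404) and with transcript lengths (-0.40, adjusted p = 0.0226). In 27°C with mannitol against 21°C, MAF4 was called with rescaling (-0.42, adjusted p = 0.0150). MAF5 averaged 1.54 ± 0.16, 1.48 ± 0.30, 1.09 ± 0.36 and 1.41 ± 0.49 TPM in the same order of groups. MAF5 rests on 20 to 60 reads per library. Its difference in 27°C against 21°C was 0.05, with a 95% interval of -0.37 to 0.48, and none of its 7 adjusted p passed the threshold.

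SOC1, the activator, was lower at 27°C than at 21°C where no mannitol was given. Its level was 3.09, 3.004 and 3.67 TPM in 27°C with mannitol, and 1.71, 2.29 and 2.81 TPM in 27°C. It was 4.53, 4.24 and 3.41 TPM in 21°C with mannitol, and 5.71, 5.002 and 5.60 TPM in 21°C. Every library of 27°C lay below every library of 21°C, while the groups with mannitol overlapped with each other. SOC1 fell by 0.99 ± 0.16 in 27°C against 21°C (adjusted p = 0.000126), and its mean TPM was 0.418 of that in 21°C. With mannitol the warmth difference was -0.25 ± 0.16, which missed the threshold (adjusted p = 0.197). The mannitol difference was 0.39 ± 0.16 at 27°C (adjusted p = 0.0654) and -0.35 ± 0.16 at 21°C (adjusted p = 0.135), with no overlap between groups at either temperature and in opposite directions. The test of that contrast, the interaction, gave 0.74 ± 0.22 by limma with an adjusted p = 0.0689, so it did not pass the threshold over all genes. Without replicate 3 of 27°C, the mannitol difference at 27°C was 0.51 (adjusted p = 0.0356) and the interaction 0.86 (adjusted p = 0.04997). Over the 20 alternative fits of the interaction its adjusted p ranged from 0.0380 to 0.167. The mannitol difference at 27°C was 0.24 to 0.52 over its 21 alternative fits, with adjusted p from 0.0356 to 0.279. The counts behind SOC1 were 35 to 125 reads per library.

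FT and TSF, the florigens, were at or near the limit of detection. FT had 2 reads in all 12 libraries, 1 in replicate 1 of 27°C and 1 in replicate 3 of 21°C, where 1 read is worth 0.0628 to 0.0673 TPM. A count of 0 allows up to 3 reads, or 0.188 to 0.202 TPM, counting error only. Differences of FT below that level could not be detected at this depth. TSF had 6, 2 and 7 reads in 27°C with mannitol, 2, 0 and 5 reads in 27°C, 1, 0 and 2 reads in 21°C with mannitol and 2, 1 and 0 reads in 21°C. In TPM all 3 libraries of 27°C with mannitol, at 0.462, 0.154 and 0.532 TPM, lay above those of 21°C, at 0.148, 0.0749 and 0 TPM, and the nearest pair had 2 reads each. An exact two-sided permutation test gave p = 0.1, the smallest that 3 libraries against 3 allow. A limma fit with no filter on low values gave 0.36 ± 0.13 for that comparison (adjusted p = 0.0412). The other 5 pairs of groups overlapped in TSF, with exact permutation p of 0.2 to 0.8. The florigens are known to be made in phloem companion cells. The 4 companion-cell markers SUC2, AHA3, NAKR1 and FTIP1, none of them at 0, summed to 204 to 224 TPM in 27°C with mannitol, 247 to 317 TPM in 27°C, 236 to 248 TPM in 21°C with mannitol and 255 to 284 TPM in 21°C. In 27°C with mannitol against 21°C, 1 of the 4 was called higher and 1 lower, where 48.0% of all genes were higher and 15.0% lower. With rescaling 0 were higher and 2 lower. NAKR1 stood at 0.39 ± 0.11 (limma, adjusted p = 0.00537, and 0.326 with rescaling). SUC2 averaged 110 ± 2.6 TPM in 27°C with mannitol, against 157 ± 13 TPM in 21°C (SD, n = 3 each). Their part in the TSF values was not tested.

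**Figure D3:**
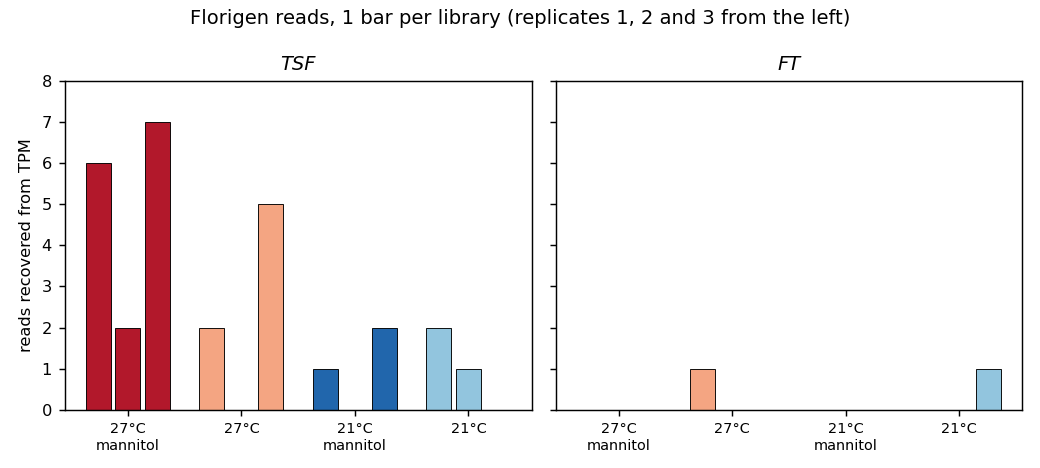
Reads of TSF (left) and FT (right) recovered from the deposited values, with 1 bar per library, in 27°C with mannitol, 27°C, 21°C with mannitol and 21°C from left to right. TSF has 15 reads in all in 27°C with mannitol, 7 in 27°C, 3 in 21°C with mannitol and 3 in 21°C, and FT has 2 in all 12 libraries.

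The calls with mannitol were for FLM and MAF2. In 27°C with mannitol against 27°C, FLM and MAF2 were called higher, 2 of 8 members, where 34.5% of all genes were called, 27.7% higher and 6.80% lower, and neither was called with rescaling. In 21°C with mannitol against 21°C, MAF2 alone was called, 1 of 8, where 20.0% of all genes were called, 15.4% higher and 4.61% lower. In 27°C with mannitol against 21°C, FLC, MAF2 and SVP were higher and SOC1 was lower, 4 of 8, where 63.0% of all genes were called, 48.0% higher and 15.0% lower, and FLC, at 0.53 ± 0.14, lost its call with rescaling (adjusted p = 0.0785). In 27°C against 21°C with mannitol, FLC and SVP were higher, FLM fell by 0.51 and SOC1 fell by 0.64, 4 of 8, where 48.3% of all genes were called, 22.7% higher and 25.6% lower. These comparisons share libraries with each other and are not independent. The interaction of warmth and mannitol gave 0 calls of 8 by limma, where 5.12% of all genes were called, 2.43% higher and 2.69% lower, with 2 members, SOC1 and SVP, at an unadjusted p under 0.05. Limma-voom on the recovered reads also gave 0.

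**Figure D4:**
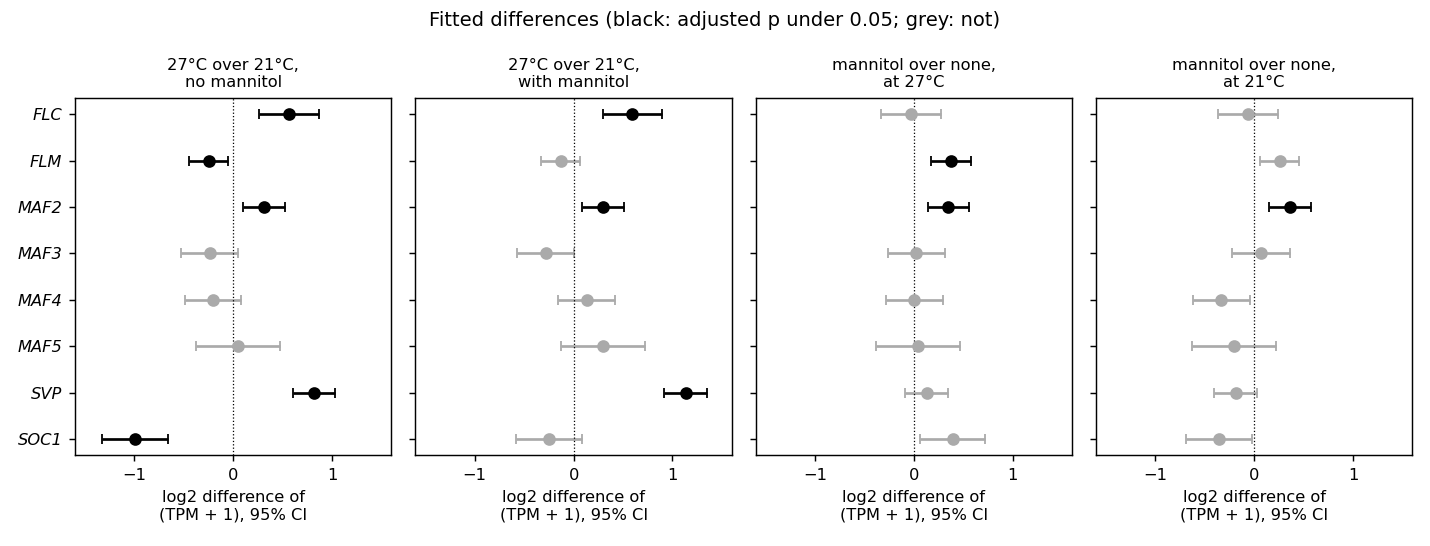
Fitted log2 differences of TPM + 1 (horizontal axis) with 95% confidence intervals for the 8 tested genes, with 27°C over 21°C without and with mannitol and mannitol over none at 27°C and at 21°C in the 4 panels; black points passed an adjusted p of 0.05 and grey points did not. SVP and FLC lie right of 0 in both warmth panels, and SOC1 lies at -0.99 in the first and at -0.25 in the second.

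Levels between the genes can be set side by side only per length. The length that the authors' TPM divided by matched the whole genomic span of the gene, introns included, for 21627 of the 21641 genes whose span could be checked. Genes with long introns are thus listed low if only reads in exons were counted. No label names the counting tool, so whether reads in introns were counted is not known. The levels rebuilt below assume that they were not, and they use the median annotated transcript of each gene. Annotated exons of all transcripts together cover 94.3% of the span of FLM, 80.9% of MAF2 and 42.1% of SVP. Levels by that exon length were not computed, so the order below holds for the median transcript length only. FLC has a span of 6067 bases and a median annotated transcript of 996 bases. With the median transcript length in its place, the order of the means over 12 libraries was MAF2 at 64.6, FLM at 49.0 and SVP at 48.5, of which FLM and SVP were nearly equal, then MAF3 at 21.7, FLC at 14.8, MAF4 at 9.22, SOC1 at 6.42 and MAF5 at 6.15. On the deposited scale the same means were 23.4 TPM for MAF2, 16.4 for FLM, 25.4 for SVP, 8.88 for MAF3, 3.52 for FLC, 3.34 for MAF4, 3.76 for SOC1 and 1.38 for MAF5. Within 1 gene the length cancels between groups, apart from the scaling of the library to its sum.

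**Figure D5:**
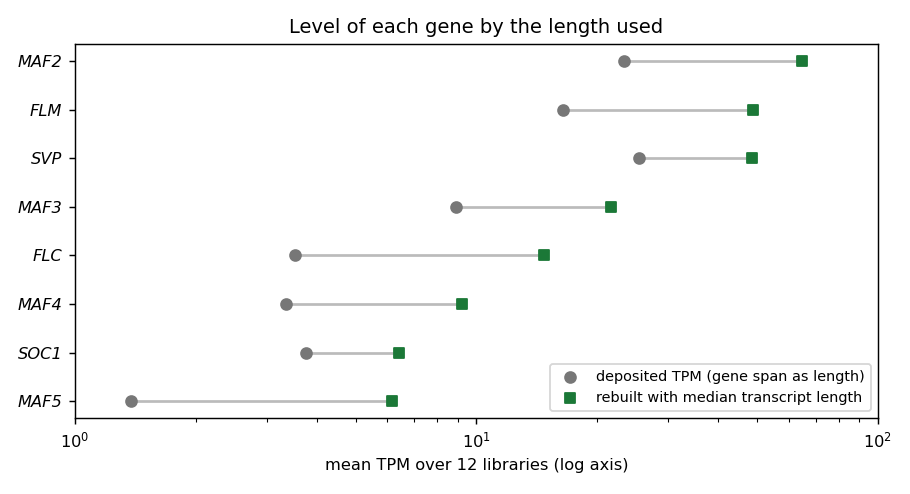
Mean over 12 libraries (horizontal log axis, TPM) of the 8 tested genes, with grey circles for the deposited TPM and green squares for TPM rebuilt from the recovered reads with the median transcript length. FLC moves to 14.8 from 3.52 and SVP to 48.5 from 25.4, so the order of genes changes.

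Counts of called genes that act on FLC stand beside 44.8% called over all genes, 28.2% higher and 16.6% lower, in 27°C against 21°C. Of 17 activators of FLC, 7 were higher and 1 was lower in that comparison, led by FRL2, a relative of FRIGIDA, at 0.88 ± 0.12 (adjusted p = 3.29e-05), and by VIP5 and VIP4 of the Paf1 complex, which helps transcription through chromatin, at 0.50 ± 0.08 and 0.49 ± 0.07. With rescaling the counts were 5 higher and 1 lower. The list median was 0.18, and that of all genes was 0.09. With mannitol, 12 were higher and 1 was lower at 27°C against 21°C, where 54.0% of all genes were called and 37.5% higher, and with rescaling 8 were higher and 1 was lower. Of 8 autonomous pathway genes, which repress FLC, FCA was the one called higher in 27°C against 21°C, at 0.67 ± 0.13 (adjusted p = 0.000515), and FVE the one called lower, at -0.21 ± 0.07 (adjusted p = 0.0313), which lost its call without replicate 3 of 27°C, replicate 2 of 21°C or replicate 3 of 21°C (adjusted p up to 0.112). Of 12 tested genes of the Polycomb and vernalization list, which silence FLC, 5 were higher and 1 was lower in the same comparison, with VEL1 at 0.98 ± 0.07 (137 ± 12 TPM in 27°C, against 68.7 ± 2.3 TPM in 21°C, SD, n = 3 each) and MSI1 at -0.39 ± 0.07. The rescaled counts were 3 higher and 2 lower. At 27°C against 21°C with mannitol in both, 4 of the 8 autonomous pathway genes were higher and 0 lower. With rescaling 1 was higher and 1 was lower. Of the 12 Polycomb and vernalization genes, 6 were higher and 1 was lower there, and 6 were higher and 2 lower with rescaling.

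Of 9 splicing and RNA-binding genes known to act on FLM or FLC transcripts, 7 were higher and 1 was lower in 27°C against 21°C, where 28.2% of all genes were higher and 16.6% lower, and 6 were higher and 1 was lower with rescaling. The list median was 0.52, against 0.09 for all genes. The RNA-binding proteins GRP8 and GRP7 rose by 0.91 ± 0.07 and 0.66 ± 0.08, and CYCL1, a cyclin partner of the kinase CDKG1, rose by 0.73 ± 0.07 (adjusted p of 1.91e-07 for GRP8, 7.67e-06 for GRP7 and 2.32e-06 for CYCL1). With mannitol, GRP7 stood at 3381 ± 398 TPM in 27°C, against 1574 ± 37 TPM in 21°C (SD, n = 3 each), a difference of 1.10 ± 0.08.

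Direct regulators of FT were called in part, PIF4 and JMJ30 among them. PIF4, a bHLH activator of warm growth and of FT, had a mean of 10.096 ± 0.941 TPM in 27°C, against 2.20 ± 0.20 TPM in 21°C (SD, n = 3 each), a difference of 1.79 ± 0.16 (adjusted p = 5.75e-07), and 5.13 ± 0.70 TPM in 27°C with mannitol, against 1.66 ± 0.52 TPM in 21°C with mannitol. Of the 12 regulators tested, 3 were called in 27°C against 21°C, all higher, where 44.8% of all genes were called and 28.2% higher, with the histone demethylase JMJ30, a repressor of FT, at 0.78 ± 0.08 and the repressor TEM2 at 0.29 ± 0.06; with rescaling 3 were higher and 1 was lower. The interaction of warmth and mannitol was called for TEM1 at -0.57 ± 0.15, JMJ30 at 0.48 ± 0.12 and TEM2 at -0.38 ± 0.09, of which JMJ30 lost its call with rescaling (adjusted p = 0.0564). Of the 12 fits that left out a library, TEM1 lost the call in 9 (adjusted p up to 0.105), JMJ30 in 7 (up to 0.0764) and TEM2 in 4 (up to 0.0661). Of 9 tested genes for florigen partners, transport and relatives, 3 were higher in 27°C against 21°C, where 28.2% of all genes were higher, the bZIP partner FD at 0.80 ± 0.13, NAKR1 at 0.54 ± 0.11 and APL at 0.34 ± 0.11, the last not called with rescaling (0.25, adjusted p = 0.0933) or without replicate 3 of 27°C, replicate 1 of 21°C or replicate 3 of 21°C (adjusted p up to 0.0839). ATC, a relative of FT with the opposite effect on flowering, rose with mannitol by 1.517 ± 0.186 at 27°C and by 1.304 ± 0.186 at 21°C. Its mean was 53.0 ± 2.1 TPM in 27°C with mannitol, against 17.9 ± 1.7 TPM in 27°C, and 37.5 ± 2.9 TPM in 21°C with mannitol, against 15.3 ± 5.9 TPM in 21°C (SD, n = 3 each). Of 16 targets at the shoot apex, 5 passed the filter. SPL4, a flowering-promoting factor, averaged 0.961 ± 0.337 TPM in 27°C, against 3.22 ± 0.91 TPM in 21°C (SD, n = 3 each), and fell by 1.10 ± 0.28. SEP3, a floral organ gene, averaged 2.03 ± 0.60 TPM in 27°C, against 0.684 ± 0.301 TPM in 21°C, and rose by 0.84 ± 0.22.

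The genes with the pattern most like that of SVP, by the root mean square difference of centred log2 values over 12 libraries, were AT3G56250 at 0.11, TLP2 at 0.11 and AT5G11090 at 0.12. For SOC1 they were AT3G52110 at 0.13, CYCA3;1 at 0.14 and CKX4 at 0.14. For MAF2 they were AT5G62950 at 0.073, AT5G58200 at 0.081 and AT5G47050 at 0.090.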

How the data were processed

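RNA was measured in 12 libraries of whole seedlings, 3 in each of 4 groups. The authors deposited TPM values for 27655 genes, and each of the 12 columns sums to 1000000. The submitters' processing notes name fastp 0.20.1, HISAT2 2.1.10, DESeq2 1.26.0 and TAIR10 without a role; no label names the counting tool. Of the gene identifiers, 27445 matched the TAIR10.1 reference, which gave symbols, positions and promoter sequences (RefSeq annotation).

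Low values of the deposited TPM were whole multiples of the value of 1 read for each gene: all 21760 genes above 0 in at least 6 libraries came out whole within 0.01 reads. The tests used limma 3.58.1 in R 4.3.3 on log2(TPM + 1), with genes of at least 1 TPM in at least 3 libraries (20005 tested, 7650 left out), 4 group means, an empirical Bayes trend and two-sided p adjusted by Benjamini-Hochberg over all tested genes in each of 7 contrasts. FT and TSF, under the filter, were tested by exact permutation. Scripts were tested on simulated data. Figures were drawn with matplotlib 3.10.9.

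The members and the pathway lists were chosen with earlier results of these data known. All 10 members are named. From each list, at most 3 genes per comparison are named, those with the largest difference among the called, and SVP, SOC1 and MAF2 got likeness searches for having the widest range of group means. Libraries were not paired by replicate number in the main fit. Residual correlations were -0.0763 to 0.128 for same-numbered libraries of different groups and -0.158 to 0.0735 for differently numbered ones. Between 27°C and 21°C, those of the same number were 0.128, 0.116 and -0.036 for replicates 1, 2 and 3. Whether the numbers pair libraries is not settled by these values. The floor given for FT covers counting error only, and the 95% intervals come from limma's variance between libraries. Alternatives were pseudocounts of 0.1 and 0.5, no filter, a mean TPM of at least 1, median-of-ratios rescaling, a replicate block, only the groups compared, limma-voom on recovered reads, each library left out and, chosen after seeing the data, TPM with transcript lengths.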

Additional observations from a re-analysis of the deposited data

Results flagged for a closer look

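SOC1 had mannitol differences of opposite sign at the 2 temperatures. All 3 libraries of 27°C with mannitol lay above all of 27°C, and all 3 of 21°C with mannitol lay below all of 21°C. The difference between the mannitol effects was 0.74 ± 0.22 (log2), and limma gave it an adjusted p of 0.0689 over all genes, so the difference was tested and did not pass.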

How the results depend on the processing

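For SVP, FLC and SOC1, the warmth calls of 27°C against 21°C kept their direction and call in all 21 alternatives, as did those of SVP and FLC with mannitol. Across the 7 contrasts and 8 members, pseudocounts, filters and the replicate block changed none of 56 results, and with no filter TSF was called in 27°C with mannitol against 21°C; the block called 5 members in 27°C against 21°C, the same number as without it. Counts of called members moved as follows: 3 (only the groups compared) and 4 (rescaling) in place of 5 in 27°C against 21°C; 4 (rescaling, limma-voom) in place of 3 in 27°C with mannitol against 21°C with mannitol; 5 (rescaling, limma-voom, no filter) in place of 4 in 27°C with mannitol against 21°C; 5 (limma-voom, transcript length) in place of 4 in 27°C against 21°C with mannitol; 2 (limma-voom) and 3 (transcript length) in place of 1 in 21°C with mannitol against 21°C, where rescaling called MAF4 in place of MAF2; 0 (rescaling) and 3 (transcript length) in place of 2 in 27°C with mannitol against 27°C; and 1 in place of 0 (transcript length) for the interaction. Rescaling turned the sign of MAF5 (-0.0047) in 27°C against 21°C, MAF4 (-0.0072) in 27°C with mannitol against 21°C with mannitol, MAF3 (-0.028) in 21°C with mannitol against 21°C, MAF3 (-0.15), MAF4 (-0.15), MAF5 (-0.074) and SVP (-0.061) in 27°C with mannitol against 27°C, FLM (-0.15) and MAF5 (-0.079) in 27°C with mannitol against 21°C, and FLC (-0.046) in the interaction. Limma-voom turned MAF3 (-0.034) and MAF4 (-0.058), and transcript length MAF4 (-0.0092), in 27°C with mannitol against 27°C. None of these was called, and the cause was not tested. Leaving out 1 library at a time gave 3 to 5 called members in 27°C against 21°C, 0 to 2 in 21°C with mannitol against 21°C, 1 to 2 in 27°C with mannitol against 27°C and 0 to 1 for the interaction, whose genes called over the whole table were 659 to 1768 in place of 1024. Signs turned within -0.082 to 0.20 for MAF5 in 27°C against 21°C, -0.10 to 0.017 for FLC and -0.024 to 0.17 for MAF3 in 21°C with mannitol against 21°C, -0.10 to 0.048 for FLC, -0.068 to 0.12 for MAF3, -0.058 to 0.077 for MAF4 and -0.060 to 0.10 for MAF5 in 27°C with mannitol against 27°C, -0.040 to 0.24 for MAF5 in 27°C with mannitol against 21°C, -0.14 to 0.010 for MAF2 in 27°C against 21°C with mannitol, and, in the interaction, -0.045 to 0.11 for FLC, -0.074 to 0.076 for MAF2 and -0.14 to 0.053 for MAF3.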
